A study of Camellia sinensis with 9 samples.

Results

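Chlorophyll consists of a magnesium-containing tetrapyrrole ring and a long phytol tail, and the expression of the unigenes for the 2 enzymes that make and attach this tail is described here across 3 leaf stages of the tea cultivar 'Anji Baicha'. The members were chosen by the gene names that the study gave to its assembled unigenes, not by their values. They were 4 of 179951 unigenes, namely unigene4795, unigene16139 and unigene131775 for chlorophyll synthase (CHLG) and unigene1182 for geranylgeranyl reductase (CHLP). A unigene is a transcript sequence assembled from the RNA-seq reads without a genome, so several unigenes can belong to 1 gene. Unigene26550, the other unigene listed for CHLP, is not a member and is given beside unigene1182 for comparison.

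'Anji Baicha' is grown for its pale early harvest, and its foliage is green later in the season. The leaves came from 4-year-old plants of this cultivar in 3 groups, with no treatment or mutant. The yellow-green (YG) leaves were the first leaves of the new shoot, the white (W) leaves stood lower on an older shoot, and the re-greening (G) leaves stood lower still and were taken in late spring. Leaf position, collection date and temperature changed together with leaf color and cannot be told apart from it. Each stage had 3 libraries from separate plants, but the values hold 1 number per unigene and stage.

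In plants, geranylgeranyl diphosphate synthase (GGPS) makes the C20 isoprenoid geranylgeranyl diphosphate in the plastid. CHLP, the geranylgeranyl reductase, saturates this chain to phytyl, which is also used for tocopherol and phylloquinone. CHLG, a prenyltransferase of the thylakoid membrane, joins the chain to chlorophyllide and so completes chlorophyll *a*. Mutations of chlorophyll synthase in rice and reduced geranylgeranyl reductase in tobacco give pale or yellow-green leaves, which is why these enzymes are of interest in a leaf that whitens and re-greens.

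The unit was FPKM, the count of fragments corrected for unigene length and for how many fragments were mapped, which allows levels of different unigenes to be set side by side. Between 140914 and 150130 unigenes per stage had a value above 0, and the FPKM values of a stage summed to between 349550 and 382235. The number of fragments behind an FPKM value is unknown, and no spread between plants can be given for any value below. The differences are thus descriptions of 1 value per stage, without a test. Each log2 change below is log2(FPKM + 1) in the later leaf less that in the earlier leaf, which makes changes of weakly expressed unigenes look smaller than they are. The background is formed by the 78868 unigenes that reached an FPKM of 1 in some stage, among them all 4 members. The unigene identifiers carry no gene names and none matched the reference gene table, so leaf markers were not checked and no genomic position is given.

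The CHLG unigenes did not share 1 course. Unigene4795 was lower at each later stage and was the only member that differed 2-fold or more between any pair of stages on the scale used here. Unigene16139, the most highly expressed CHLG unigene, stayed nearly level, and the weakly expressed unigene131775 was highest in the white leaf. The CHLP unigene1182 took the opposite course to unigene4795 and was higher at each later stage.

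**Figure D1:**
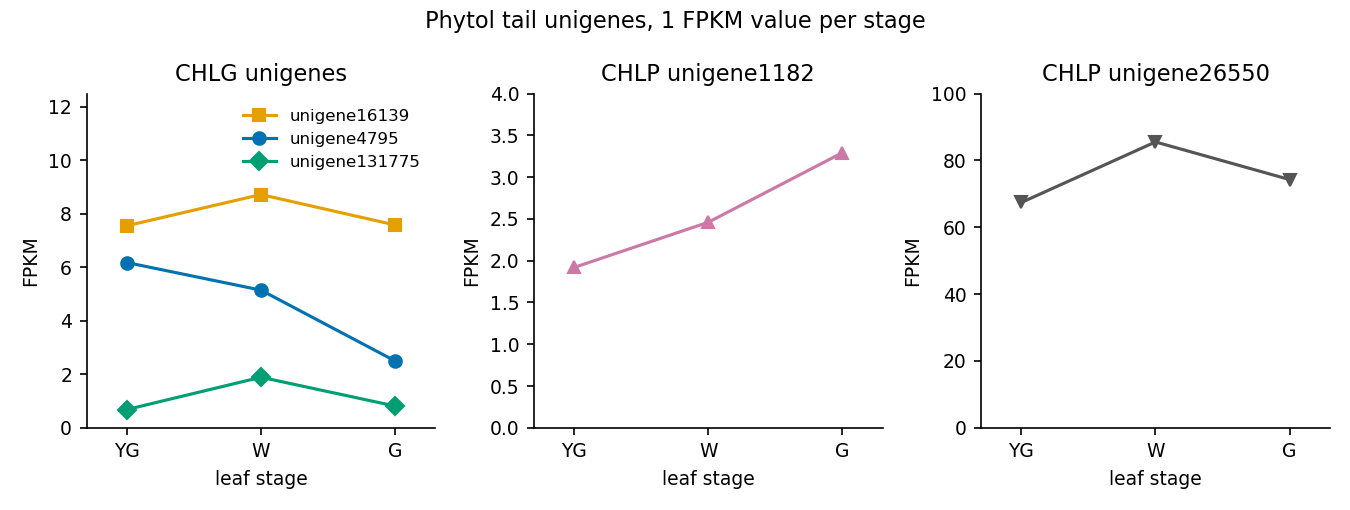
FPKM (vertical axes, from 0, with a different range in each panel) of the CHLG unigenes, of the CHLP unigene1182 and of the CHLP unigene26550 at the YG, W and G stages. Each point is the authors' single value for a stage, so there are no error bars. Unigene4795 goes from 6.18 in YG to 2.50 in G, while unigene1182 goes from 1.92 to 3.29.

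Unigene4795 had an FPKM of 6.18 in yellow-green leaves, 5.15 in white leaves and 2.50 in re-greening leaves. Most of the difference lay in the step from the white to the re-greening leaf, with a log2 change of -0.81, against -0.22 in the step before it. The YG level was 2.47 times the G level as a plain ratio of FPKM, and the log2 change between these stages was -1.04, just past the 2-fold mark. Of all unigenes counted, 14.2% were lower in G by 2-fold or more, and among those that reached an FPKM of 5 in some stage the share was 17.3%, so a difference of this size was not rare. When each stage was scaled to the same FPKM sum, the change was -0.995, short of 2-fold, and the other 3 scalings kept it past the mark. Whether fewer cells expressed this RNA or each cell held less of it cannot be told apart in whole leaves. Unigene4795 was also the only member in the study's heat map of differentially expressed chlorophyll unigenes, which was made from the same libraries, so its change is not an independent observation.

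For unigene16139 the FPKM values were 7.56 in yellow-green, 8.72 in white and 7.58 in re-greening leaves. The highest of these was 1.15 times the lowest, and the G value was 1.004 times the YG value. The white leaf stood above both neighbours by a log2 change of 0.18. The sign of the small difference between YG and G depended on the scaling, with values between -0.14 and 0.04. In each stage this unigene was among the upper part of the transcriptome, with 94.9% to 96.4% of the unigenes above 0 having a lower FPKM.

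Unigene131775 was weakly expressed, with an FPKM of 0.683 in yellow-green, 1.89 in white and 0.815 in re-greening leaves. It was highest in W, 2.77 times its value in YG, but it passed the minimum of 1 only through its W value and so had to be highest there. Its log2 change was 0.78 on whitening and -0.67 on re-greening, both short of 2-fold, whereas without the pseudocount of 1 the changes were 1.47 and -1.21, past 2-fold. Its number lies in a stretch of the assembly that was rich in unigenes seen in the G stage. Among the 6123 unigenes numbered 130001 to 140000 that passed the minimum, 63.2% had their highest value in G and 17.5% in W, against 36.7% and 27.9% of all unigenes counted.

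Placed together, the 3 CHLG unigenes summed to an FPKM of 14.4 in yellow-green, 15.8 in white and 10.9 in re-greening leaves. A sum is given because the sources used here do not say how reads shared by similar unigenes were treated. Since FPKM divides by length, the sum can still depend on that treatment where the unigenes differ in length. The log2 change of the sum was 0.12 on whitening and -0.49 on re-greening, the latter smaller in size than that of unigene4795. Without unigene131775, which passed the minimum only through W, the change on whitening was 0.01. Unigene4795 held 42.9% of the sum in YG, 32.7% in W and 23.0% in G. Unigene16139 held 52.4%, 55.3% and 69.6% in the same order, and unigene131775 the remaining 4.74%, 12.0% and 7.48%. Unigene4795 stood at 0.818 times unigene16139 in yellow-green, 0.590 times in white and 0.330 times in re-greening leaves. These ratios are taken within a stage, so a factor common to a whole stage does not alter them. From YG to G they differed by a larger factor than the CHLG sum did, whereas the share of unigene16139 differed by nearly the same factor as the sum.

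**Figure D2:**
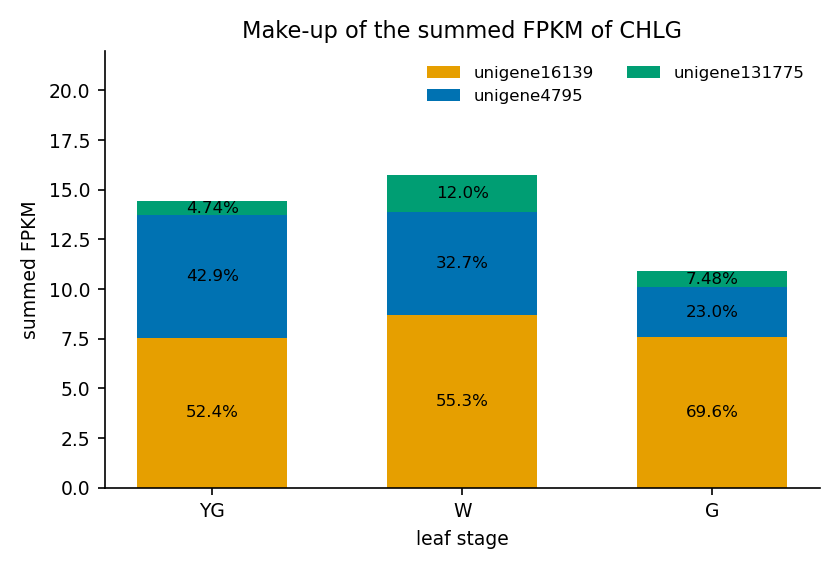
Summed FPKM of the CHLG unigenes (vertical axis, from 0) at each leaf stage, divided into unigene16139, unigene4795 and unigene131775. The percentages are shares of the stage's sum. The part of unigene4795 shrinks from 42.9% in YG to 23.0% in G while that of unigene16139 grows from 52.4% to 69.6%.

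The CHLP unigene1182 had an FPKM of 1.92 in yellow-green, 2.46 in white and 3.29 in re-greening leaves. The G value was 1.72 times the YG value, and the log2 changes were 0.25 on whitening, 0.31 on re-greening and 0.56 over both steps. None of these steps reached 2-fold, a mark that 15.1% of all unigenes counted passed upward from YG to G. The order of the stages held under all 4 scalings. Relative to the summed CHLG unigenes within the same stage, unigene1182 stood at 0.133, 0.156 and 0.302 in the order of the stages.

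Unigene1182 carried little of the RNA assigned to CHLP. The far more abundant unigene26550 had an FPKM of 67.4 in yellow-green, 85.5 in white and 74.3 in re-greening leaves, higher than 99.7% to 99.8% of the unigenes above 0. It was 35.1 times unigene1182 in YG, 34.8 times in W and 22.6 times in G. Unigene26550 was highest in the white leaf, like unigene16139, with log2 changes of 0.34 on whitening and -0.20 on re-greening. Unigene1182 held only 2.77%, 2.80% and 4.24% of the CHLP sum at the YG, W and G stages, so the summed FPKM of 69.3, 88.0 and 77.6 followed unigene26550 and not the member. The course of CHLP across the stages therefore depends on which of these unigenes is read.

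Of these unigenes only unigene26550 had a qRT-PCR primer pair in the study, and 0 of the 4 members had one. The pair is shown, 5′ to 3′, because it is the only sequence in the sources used here that ties any of these unigenes to a piece of its transcript. Both primers have 24 bases, and 45.8% of the bases of the sense primer and 25.0% of those of the antisense primer are G or C.
unigene26550 sense primer: tgaggagagagatggagaagatga
unigene26550 antisense primer: aacccaaaaaccaaaaaaaacaaa

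The gene names carry a doubt of their own. The study's list gives the abbreviation CHLP the enzyme name chlorophyll synthase and sets geranylgeranyl-diphosphate reductase beside CAO, the abbreviation otherwise used for chlorophyllide *a* oxygenase. The abbreviations were followed here. Neither the assignment of unigene1182 and unigene26550 to geranylgeranyl reductase nor that of the CAO unigenes to the oxygenase was checked against a sequence.

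Set against the whole transcriptome, the members lay well inside the spread of all changes. From YG to G, 13.3% of the unigenes counted had a lower change than unigene4795 and 74.3% had a lower change than unigene1182, while unigene16139 lay near the middle, at 52.4%. From YG to W no member was 2-fold apart, a mark passed in either direction by 20.5% of all unigenes counted. The member farthest from 0 was unigene131775, with a lower change in 85.2% of them. It passed the minimum only through its W value, so the direction of this change was fixed and its place is no result. From W to G again no member was 2-fold apart, against 22.1%, and unigene4795 had a lower change in 14.7%. From YG to G it was 1 of the 4 members, against 29.3% in either direction, a share near the background.

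**Figure D3:**
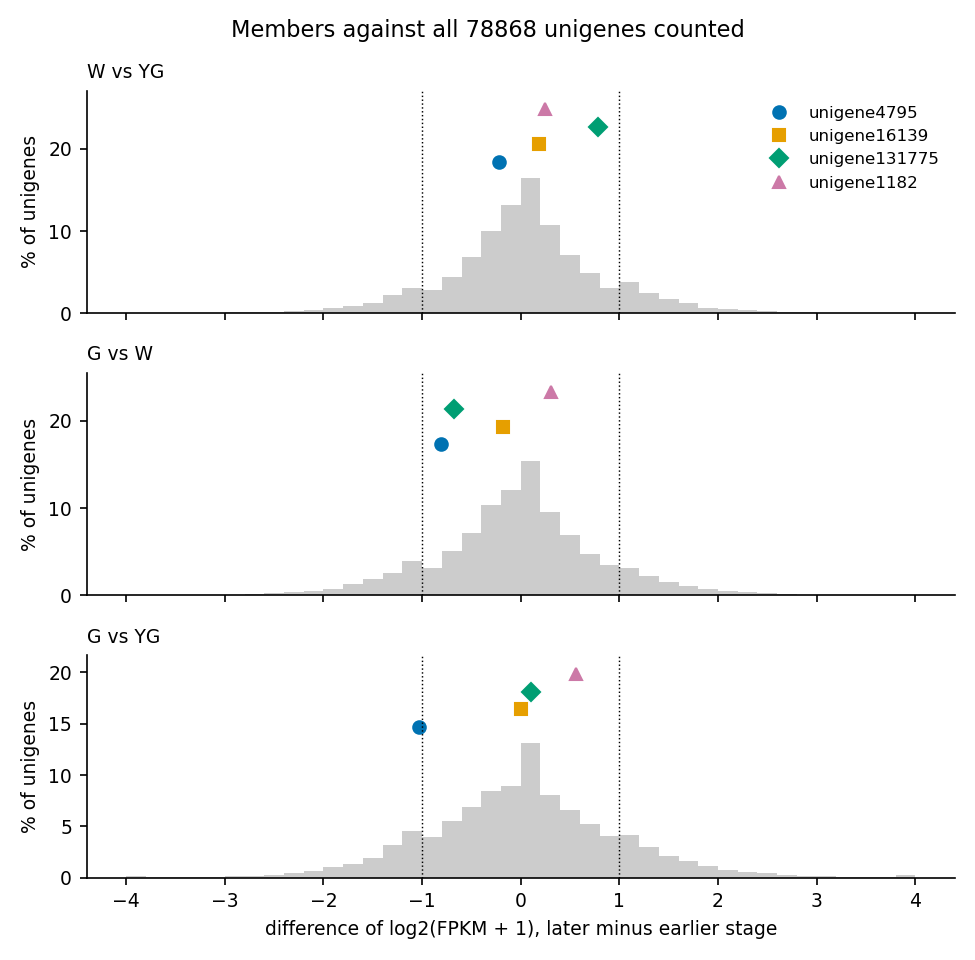
Share of all unigenes counted (vertical axes, %) by their difference in log2(FPKM + 1) between stages (horizontal axis, bins of 0.2, the outermost bins also holding larger changes), for W against YG, G against W and G against YG. Coloured symbols mark the change of each member and their height has no meaning, and dotted lines mark 2-fold. Only unigene4795, from YG to G at -1.04, lies beyond a dotted line.

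The members were next placed among the 70 unigenes that the study lists for chlorophyll metabolism, of which 62 passed the minimum. Between the yellow-green and the re-greening leaf, 9 of the 62 decreased by more than unigene4795, and 20 increased by more than unigene1182. Unigene4795 was 1 of 12 listed unigenes that were lower at each later stage, or 19.4% against 21.7% of all unigenes counted. With it were 5 unigenes of PORA, the light-dependent protochlorophyllide oxidoreductase that makes the chlorophyllide to which the tail is attached. The rest belonged to other enzymes of the list, namely CLH, HEMB, HEMC, CHLD and HCAR. Unigene1182 was 1 of 18 that were higher at each later stage, 29.0% against 22.2%. Unigene16139 and unigene26550 were among the 23 that were highest in W, 37.1% against 27.9%, and so was unigene131775, whose order was fixed by the minimum. In the list without the 4 members, 11 of 58 unigenes were higher in re-greening than in yellow-green leaves by 2-fold or more and 9 were lower by as much, where 15.1% and 14.2% of all unigenes counted were, and the median log2 change was 0.07, against 0.00 for all unigenes counted.

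The enzymes of the tail, as named by the abbreviations, were among those that differed little between stages when all their unigenes were summed. The highest summed FPKM was 1.27 times the lowest for CHLP and 1.45 times for CHLG, the fourth and the seventh smallest of these ratios among the 22 enzymes with a sum above 0 in every stage. GSA, NOL and CHLM had smaller ratios than CHLP, at 1.19, 1.21 and 1.25, so small differences were not particular to the tail. The ratio of CHLP followed unigene26550, which is not a member. The enzymes named next are those with the largest ratios. The sum of PORA was 128 in YG and 31.9 in G. That of CAO, which takes part in making chlorophyll *b*, was 2.57 in YG and 17.0 in G. Its ratio of 6.62 was the largest of the 22. Since the study's list sets geranylgeranyl-diphosphate reductase beside CAO, the small differences of the tail enzymes hold only as far as the abbreviations do. The ring enzymes CHLH, a subunit of magnesium chelatase, and CRD, the cyclase that closes the additional ring, stood at 4.25 and 3.33 times their YG sums in G.

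**Figure D4:**
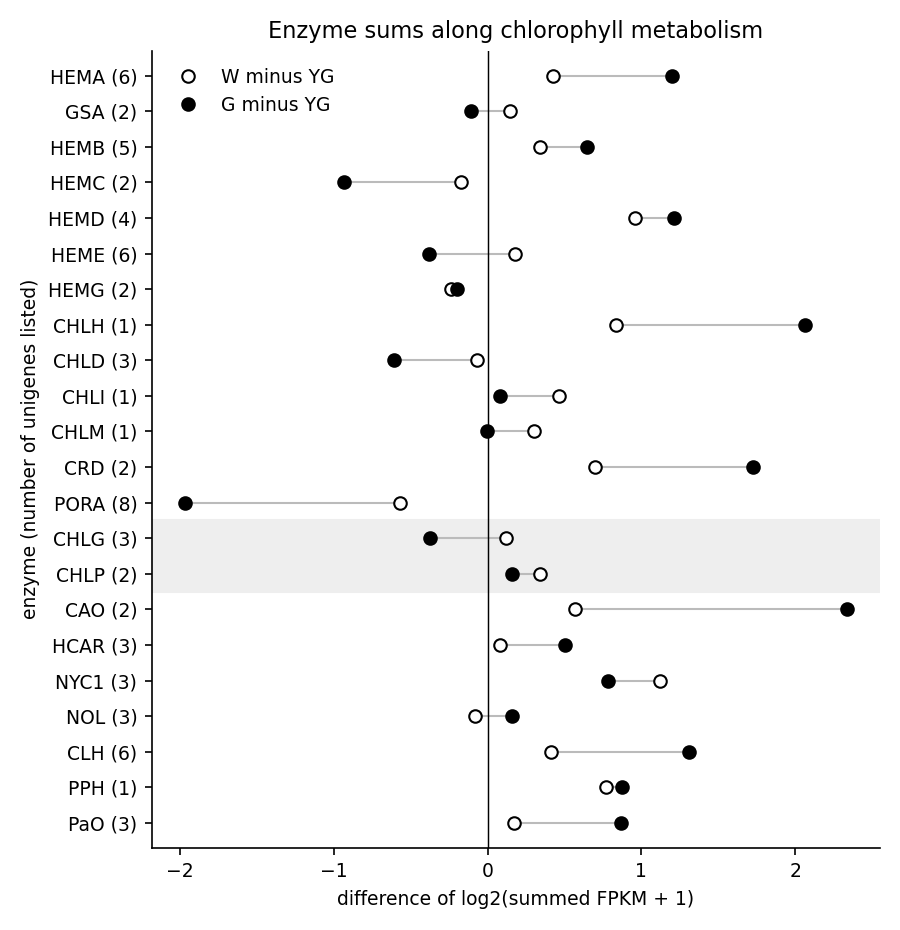
Difference of log2(summed FPKM + 1) from YG to W (open circles) and from YG to G (filled circles) for the enzymes of chlorophyll metabolism. They stand in approximate pathway order from top to bottom, with the number of unigenes listed for each. HEMF, listed at 0 in G, and PORB, whose only unigene is also listed for PORA, are left out. CHLG (-0.37 in G) and CHLP (0.16 in G), shaded, lie between PORA (-1.97) above them and CAO (2.34) below them.

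The balance between the step before the tail and the tail step shifted accordingly. The summed FPKM of PORA was 8.86 times that of CHLG in YG, 5.43 times in W and 2.92 times in G. The summed FPKM of CAO was 0.178 times that of CHLG in YG, 0.272 times in W and 1.56 times in G, so CAO stood above CHLG only in the re-greening leaf. The sum of CHLP was 4.81, 5.58 and 7.11 times that of CHLG in the same order of stages. The largest increase in the list belonged to unigene131928 of chlorophyllase (CLH), an enzyme that cuts the tail off, with FPKM values of 0.0277, 4.44 and 56.0 in the order of the stages. The largest decrease was that of the PORA unigene62053, from 29.0 to 0.822 between the first and the last stage. The CLH unigenes together had 2.29 times the summed FPKM of CHLG in YG and 7.64 times in G. Unigene131928 alone held 56.0 of the CLH sum of 83.3 in G, against 0.0277 of 33.1 in YG. Without it the CLH sum was lower in G than in YG. Its number lies in the same range as that of unigene131775, which was rich in unigenes highest in G.

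The supply of the tail was looked at in the 33 unigenes listed for the isoprenoid precursors, from DXS to GGPS, and for phytoene synthase (PSY), which draws on the same geranylgeranyl diphosphate for carotenoids. Of these, 26 passed the minimum, and 20 of them had a higher and 5 a lower value in re-greening than in yellow-green leaves, with a median log2 change of 0.36. These counts and this median pool the supply enzymes with PSY, so they do not describe the supply of the tail alone. Of all unigenes counted, 37683 had a higher and 37786 a lower value, with a median of 0.00. By 2-fold or more, 2 of the 26 were higher and 1 was lower, against 15.1% and 14.2% of all unigenes counted. The largest increase was that of unigene28019 of ispF, an enzyme of the plastid isoprenoid pathway, with FPKM values of 8.67, 20.7 and 36.1. The largest decrease was that of the GGPS unigene171201, with 1.06 in YG and listed at 0 in W and G, where a value of 0 can be a failed estimate. This unigene was the 1 lower by 2-fold or more. It passed the minimum of 1 only through its YG value and so had to be highest there. The summed FPKM of GGPS was 5.16 times that of CHLG in YG, 3.98 times in W and 5.50 times in G, and that of PSY 3.10, 3.14 and 9.86 times. Unlike most unigenes of this list, the GGPS sum itself decreased, from 74.5 to 62.7 on whitening and then to 60.0. Its ratio to CHLG was higher in G than in YG only because CHLG decreased more. The G sum was 0.756 times the YG sum for CHLG and 0.805 times for GGPS.

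Finally, the listed unigenes most like each member were sought by the distance between their log2(FPKM + 1) values over the 3 stages, each centred on its own mean. The distance is a description over 3 values, and many other unigenes lie as close. Nearest to unigene4795 was the HEMC unigene39110, an enzyme of an early tetrapyrrole step, at a distance of 0.07 with FPKM values of 79.2, 68.7 and 40.9 in the order of the stages, and 230 of all unigenes counted were as near. The CLH unigene56286 and the HEMB unigene71483 followed, at 0.18 and 0.29. Nearest to unigene16139 was unigene8789, at 0.05, which unlike most PORA unigenes was nearly level, with 21.9, 26.1 and 21.7, followed by the GSA unigene90011 and the ispE unigene8252 at 0.09 each. Nearest to unigene131775 was the DXS unigene10858, the first enzyme of the plastid isoprenoid pathway, at 0.13, followed by the CHLI unigene8500 at 0.25 and the HEMA unigene1366 at 0.29. Nearest to unigene1182 was unigene89678 of PDS, a carotenoid desaturase, at 0.09 with 2.18, 2.65 and 3.94, where 1207 of all unigenes counted were as near, followed by the IPI unigene3467 and unigene20835, at 0.10 and 0.11.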

How the data were processed

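Leaves of 'Anji Baicha' at the YG, W and G stages were sequenced in 3 libraries per stage, 9 in all, and the stage was taken from the leaf stage in the labels. The authors filtered the reads, assembled unigenes de novo with Trinity and cap3/PriceTI, and computed expression with Cufflinks, version 1.0.3 in the methods and 2.1.1 in the submitters' processing notes. The deposited FPKM values hold 1 value per unigene and stage. How the libraries were combined, the aligner and the treatment of shared reads are not given in the sources used here. The fragments behind each FPKM value are unknown, since among 23327 unigenes with low values no ratio between stages occurred more than 25 times, which leaves no steps worth 1 fragment.

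Differences of log2(FPKM + 1) were computed, with no test and no interval. The members and lists were chosen with earlier results of these data known. The unigenes named are the 4 members, unigene26550, the 3 listed unigenes most like each member, and the largest increase and decrease of each list. The ratios between enzyme sums, the number range around unigene131775 and other unigenes were added after the values were seen. Alternatives were a pseudocount of 0.1 or none, upper-quartile, FPKM-sum and median-ratio scaling, quantile normalization, other minimums, the heat map unigenes only, and CHLG without unigene131775. The counting was tested on simulated data, with changes well past 2-fold placed in more highly expressed unigenes. Recovery of changes near 2-fold or in weakly expressed unigenes was not tested. Python 3.11.15, pandas 2.3.3, numpy 2.4.6 and matplotlib 3.10.9 were used.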

Additional observations from a re-analysis of the deposited data

How the results depend on the processing

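Under the 4 scalings every member and unigene26550 kept its course, whether lower or higher at each later stage or highest in W. Only for unigene16139 did the sign of a difference, that between YG and G, depend on the scaling. No scaling moved the median change of all unigenes counted by as much as 0.1. The pseudocount mattered more. With 0.1 the log2 change of unigene4795 was -1.01 for G against W and -1.27 for G against YG, and with none -1.04 and -1.30. For unigene131775 it was 1.35 on whitening and -1.12 on re-greening with 0.1, and 1.47 and -1.21 with none. For unigene1182 over both steps it was 0.78 with none. With unigene1182 alone in place of the CHLP sum, a choice made after seeing the data, the changes were 0.31 on re-greening, where the sum had -0.18, and 0.56 over both steps. The change of the CHLG sum stayed within 0.2 of its value under every alternative, CHLG without unigene131775 included. Without that unigene, however, the small change on whitening went from 0.12 to 0.01. Counts of unigenes at least 2-fold apart were 28557 on whitening, 30939 on re-greening and 37728 over both steps with a pseudocount of 0.1, and 3345, 3809 and 6337 with a minimum FPKM of 5, because fewer unigenes were counted. The median of the chlorophyll list over both steps was 0.63, against 0.07, for the heat map unigenes. Of the 3 unigenes nearest to unigene131775, 1 was kept with a pseudocount of 0.1 and 1 with none. Of those nearest to unigene16139 and to unigene1182, 2 each were kept under either pseudocount and all scalings but the median-ratio one, and for unigene4795 all 3 were kept throughout. No paired analysis was possible because each stage has 1 value, and for the same reason no replicate could be left out. Without the fragments behind each value, no value here has an interval.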
